A study of Mus musculus with 441 samples.

Results

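Il21 and Il10 are the genes of interleukin 21 and interleukin 10, and they were taken by name as 2 of the 13561 genes measured in 441 single cells from mouse pancreatic islets. Each cell was sorted by FACS from CD4 T cells held to be specific for beta cells, picked by its binding to a tetramer, a labelled complex of MHC molecules with bound peptide. The HIP tetramer sort gave 184 cells and the Ins tetramer sort gave 257 cells, and the labels do not spell out either name. The study as a whole concerns how peptides reach MHC class II in autoimmunity. The authors' annotation divided the HIP sort into 61 cells of cluster 2, to which it gave the name activated CD4 T cell, 111 T follicular helper cells, 9 dividing CD4 T cells and 3 regulatory T cells (Tregs). It divided the Ins sort into 25, 61, 35 and 115 cells of the same classes in the same order, and 21 cells of cluster 4. Cluster 4 was annotated as B cells and is referred to here by number, since 20 of its 21 cells held Sdc1, a marker of antibody-secreting cells. The other 420 cells are called T cells below. The labels give no strain, genotype, age, treatment or number of animals for either sort, so each sort is 1 sample, nothing was tested, and a difference between the sorts has no replicate check.

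Interleukin 21 is made mainly by T follicular helper cells and drives B cells in germinal centres to proliferate and to switch antibody class. It binds the receptor Il21r paired with the common gamma chain Il2rg, which signal through the kinases Jak1 and Jak3 to the factor Stat3. Interleukin 10 restrains antigen-presenting cells and inflammation, is made by Tregs and by other T cells, and signals through Il10ra and Il10rb, the kinases Jak1 and Tyk2 and again Stat3. In mouse T cells the transcription factor c-Maf, encoded by Maf, is known to promote both genes. In mouse models of autoimmune diabetes, loss of the interleukin 21 receptor is known to protect from disease.

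Il21 lies at chr3:37222759-37232636 on the minus strand of GRCm38, with 5 exons in its longest transcript, and Il10 lies at chr1:131019845-131024974 on the plus strand, also with 5 exons. Of both genes, 1 had an entry among the RefSeq promoter windows, Il21. Its 250 bases before the start of the gene, read on the minus strand from chr3:37232637-37232886 of GRCm38.p6, are shown because Maf and NFAT family genes, listed regulators of Il21, were measured in the same cells. Capitals mark matches on either strand to the NFAT core TTTCC and to the MAF motif TGCTGA.

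Il21 promoter: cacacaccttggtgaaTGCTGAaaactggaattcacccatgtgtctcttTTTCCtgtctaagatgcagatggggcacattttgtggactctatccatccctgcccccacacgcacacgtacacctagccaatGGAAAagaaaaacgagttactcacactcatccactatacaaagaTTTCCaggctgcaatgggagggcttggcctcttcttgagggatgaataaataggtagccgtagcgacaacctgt

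The NFAT core occurred 3 times, on the sense strand at -201 to -197 and at -74 to -70 and on the antisense strand at -118 to -114, counted from the start of the gene. The MAF motif occurred 1 time, at -234 to -229. No capitals of the motifs overlapped, and neither the AP-1 motif TGANTCA nor the STAT motif (TTC, any 3 bases, GAA) was found in this window. Of 32851 promoter windows, 55.6% held the NFAT core, 16.1% the MAF motif, 6.75% the AP-1 motif and 7.02% the STAT motif. These matches describe the letters only.

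The transcript of Il10 shared fewer short runs of bases with other genes than that of Il21, and the reads themselves were not examined. Any run of 25 bases, the shorter read length of the pair, in the 1310-base transcript of Il10 was found in the transcripts of 0 other genes. The 3072-base transcript of Il21 shared such runs with 1630 other genes, of which 1 shared a run with its coding sequence. That gene, Gm12534 (chr3:37231333-37232469, plus strand), lies antisense to Il21, was not analysed here, and its reads in the overlap cannot be told apart from those of Il21, since SMART-Seq2 does not mark the strand. Il21 and Il10 themselves shared no run longer than 10 bases. Values above 0 but under 1 TPM, the detection threshold, were found in 4 cells for Il21 and in 0 cells for Il10. TPM, the share of each transcript per length scaled to 1000000 per cell, keeps no read depth, so the depth is not known, and the count of detected genes, 2081 per cell at the median (625 to 5929), stands in for it.

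Il21 was detected in 93 of 420 T cells (22.1%, exact 95% interval 18.3–26.4%) and in 0 of 21 cells of cluster 4, which allows a share of up to 14.3%. Cluster 2 held it in 28 of 61 HIP cells (45.9%, 33.1–59.2%) and 8 of 25 Ins cells (32.0%, 14.9–53.5%). In the T follicular helper class, whose usual cytokine it is, 26 of 111 HIP cells held it (23.4%, 15.9–32.4%), as did 17 of 61 Ins cells (27.9%, 17.1–40.8%). Both pairs of intervals overlap widely. Dividing cells held it in 6 of 9 HIP cells (66.7%, 29.9–92.5%) and 5 of 35 Ins cells (14.3%, 4.81–30.3%), with intervals that just overlap. Among Tregs it was found in 0 of 3 HIP cells and 3 of 115 Ins cells (2.61%, 0.541–7.43%). Of the 93 cells with Il21, 43 (46.2%) were follicular helper cells, 36 (38.7%) belonged to cluster 2, 11 (11.8%) were dividing and 3 were Tregs.

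Il10 was detected in 92 T cells (21.9%, 18.0–26.2%), nearly the same number, spread differently over the classes. It was found in 2 of 3 HIP Tregs and 52 of 115 Ins Tregs (45.2%, 35.9–54.8%). Cluster 2 held it in 21 of 61 HIP cells (34.4%, 22.7–47.7%) and 5 of 25 Ins cells (20.0%, 6.83–40.7%). None of the 9 HIP dividing cells held it, so a share of up to 33.3% is possible, while it stood in 10 of 35 Ins cells (28.6%, 14.6–46.3%). The follicular helper class was nearly empty of it, with 0 of 111 HIP cells, where 3 cells would be 2.70%, and 2 of 61 Ins cells (3.28%, 0.400–11.3%). In cluster 4 it was found in 1 of 21 cells, at 214 TPM. Tregs held 54 (58.1%) of all 93 cells with Il10, cluster 2 held 26 (28.0%) and dividing cells 10 (10.8%).

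**Figure D1:**
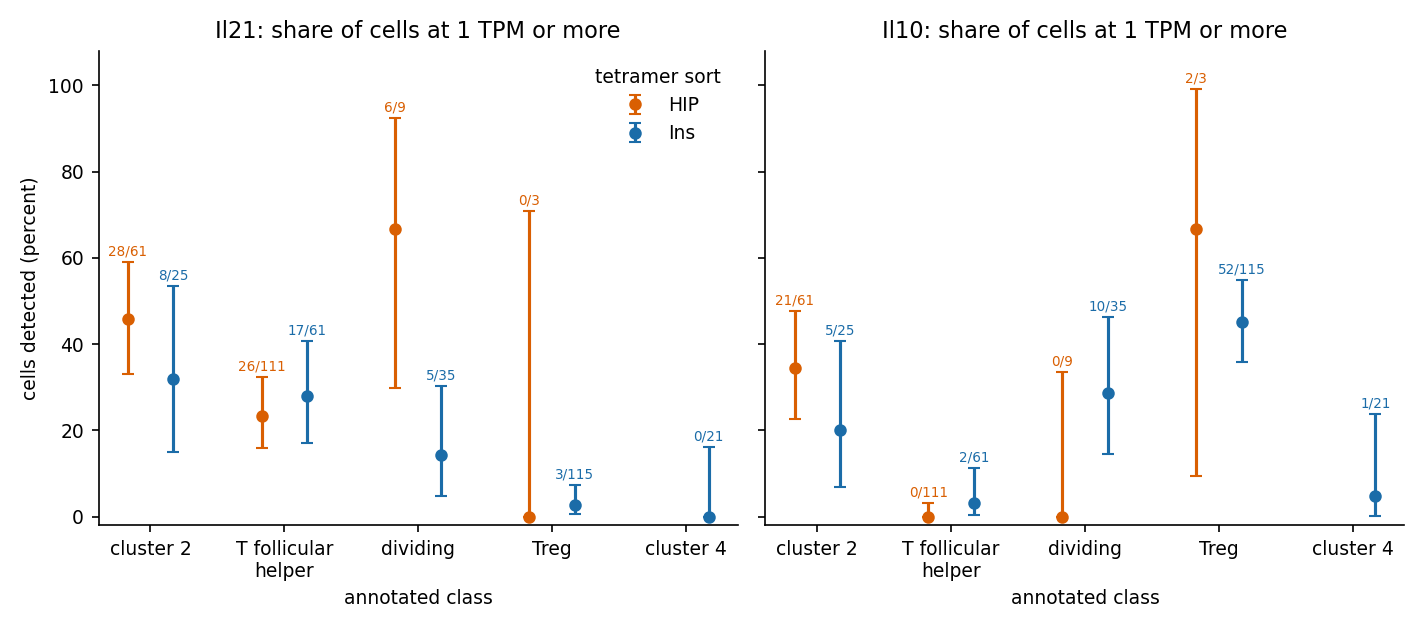
Share of cells at 1 TPM or more (percent, vertical axis) for Il21 (left) and Il10 (right) by annotated class, HIP in orange and Ins in blue; points are shares, bars are exact 95% intervals that cover counting error only, and the cell counts stand above. Il21 reaches 45.9% of HIP and 32.0% of Ins cells in cluster 2 and 2.61% of Ins Tregs, while Il10 reaches 45.2% of Ins Tregs and 0 of 111 HIP follicular helper cells.

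Ordered by share among groups of more than 3 cells, Il21 ran from HIP dividing cells through HIP and Ins cluster 2, Ins and HIP follicular helper cells and Ins dividing cells to Ins Tregs and cluster 4. Il10 ran from Ins Tregs through HIP cluster 2, Ins dividing cells and Ins cluster 2 to cluster 4, Ins follicular helper cells and the HIP follicular helper and dividing cells. The intervals of every pair of neighbours in both orders overlapped, which does not show that neighbours are alike. For Il21, Ins dividing cells (4.81–30.3%) and Ins Tregs (0.541–7.43%) overlap only slightly. Within the HIP sort, cluster 2 lay above the follicular helper class by 22.5 percentage points for Il21 and by 34.4 points for Il10, in a comparison where 15.1% of genes were higher and 5.42% lower by the rule used throughout, a difference of 10 points or more among genes detected in 10% of the cells of either side. Within the Ins sort the same comparison gave 4.13 points for Il21 and 16.7 points for Il10, against 16.4% of genes higher and 16.4% lower. Ins Tregs differed from Ins follicular helper cells by -25.3 points for Il21, where 8.63% of genes were lower, and by 41.9 points for Il10, where 13.5% were higher. Ins cluster 2 differed from Ins Tregs by 29.4 points for Il21 and by -25.2 points for Il10, where 11.9% of genes were higher and 17.5% lower. Cell names carry numbers, and each run of 96 consecutive numbers, called a block here, held cells of 1 sort only, blocks 1 and 3 of HIP and blocks 2, 4 and 5 of Ins. Without block 4, the Il21 differences of Ins Tregs from follicular helper cells and of Ins cluster 2 from Tregs were -15.3 and 14.0 points. Without block 3 the HIP difference of cluster 2 from follicular helper cells in Il21 was 13.6 points. The Ins one was 10.1 points without block 2 and -1.28 points without block 4. The authors' classes were built on the expression of these cells, so differences between classes are descriptions.

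The level within detected cells spread widely, and Il10 reached higher TPM than Il21. In cluster 2, cells with Il21 held 1.62 to 821 TPM (median 183 TPM) in HIP and 3.51 to 438 TPM (median 82.1 TPM) in Ins. In the follicular helper class they held 4.07 to 848 TPM (median 78.1 TPM) in HIP and 1.79 to 1231 TPM (median 91.0 TPM) in Ins. The highest single value of Il21 thus lay in an Ins follicular helper cell, and the ranges of the sorts overlap almost fully. Among dividing cells, Il21 stood at 3.36, 21.4, 48.9, 64.3, 83.1 and 98.9 TPM in the 6 HIP cells and at 3.27, 5.42, 23.4, 55.2 and 147 TPM in the 5 Ins cells, and the 3 Ins Tregs held 41.4, 62.6 and 101 TPM.

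Il10 in Ins Tregs ran from 9.74 to 5384 TPM with a median of 548 TPM, and both HIP Tregs with it held 1.89 and 55.9 TPM, near or below the low end of that range. In HIP cells of cluster 2 Il10 ran from 1.42 to 4161 TPM with a median of 797 TPM, and the 5 Ins cells held 23.3, 29.5, 427, 438 and 1373 TPM. In Ins dividing cells it ran from 42.9 to 1140.1 TPM with a median of 325 TPM. Both Ins follicular helper cells with Il10 held 2.28 and 286 TPM. Over all cells of a group, zeros included, the mean in cluster 2 was 104 ± 182 TPM in HIP and 39.3 ± 98.1 TPM in Ins for Il21 (SD over cells, n = 61 and 25). For Il10 it was 502 ± 1109 TPM in HIP and 91.6 ± 292 TPM in Ins. These SDs are the spread between cells, and each exceeds its mean.

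**Figure D2:**
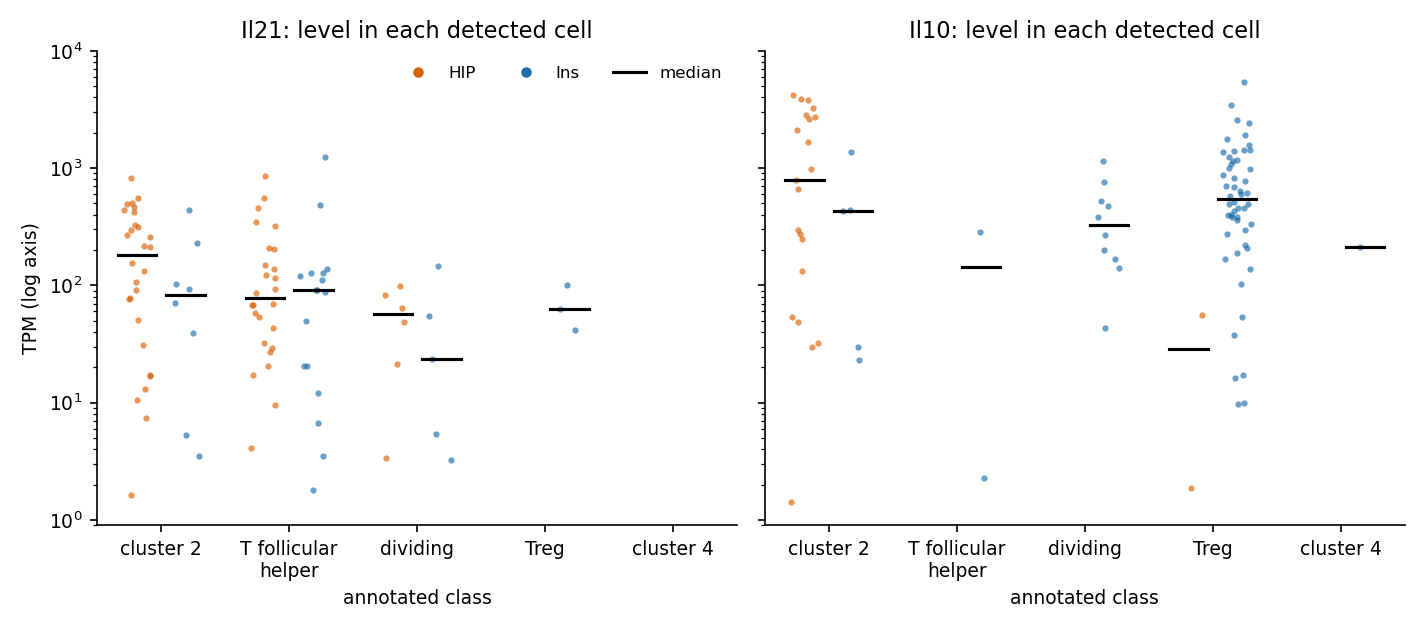
Level of Il21 (left) and Il10 (right) in each detected cell (TPM, log axis) by annotated class, with 1 point per cell, HIP in orange and Ins in blue, and a black bar at the median. In cluster 2 the Il10 median stands at 797 TPM for HIP and 427 TPM for Ins cells, and the Il21 median at 183 TPM for HIP and 82.1 TPM for Ins cells; Il10 in Ins Tregs has a median of 548 TPM.

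At least 1 of the measured T cell markers Cd3e, Cd3d, Cd3g and Cd4 was detected in 93 of 93 T cells with Il21 (summed level 1313 to 17070 TPM) and in 92 of 92 with Il10 (1702 to 17070 TPM). Any of 4 B cell markers was found in 1 of 93 cells with Il21 and 10 of 327 without, and in 2 of 92 cells with Il10 and 9 of 328 without, with Ms4a1 at 0 in all cells with either cytokine and a highest summed level of 13.0 TPM beside Il21 and 373 TPM beside Il10. Any of 4 myeloid markers was found in 7 of 93 cells with Il21 and 23 of 327 without, and in 9 of 92 with Il10 and 21 of 328 without. C1qb and Fcer1g were at 0 in all T cells, with or without either cytokine, and Lyz2 was above 0 beside Il21 and at 0 in the T cells without it. The highest summed myeloid level was 2447 TPM with Il21 and 1726 TPM without, and 1132 TPM with Il10 and 2447 TPM without. Any of 4 markers of antibody-secreting cells was found in 55 of 93 cells with Il21 (59.1%) and 152 of 327 without (46.5%), and in 59 of 92 with Il10 (64.1%) and 148 of 328 without (45.1%). Of these, Prdm1 and Irf4 are also listed regulators of the cytokines, and Sdc1 reached 1 TPM in 0 T cells. Hormone genes of islet endocrine cells were found in 12 of 93 cells with Il21 and 51 of 327 without, and in 18 of 92 with Il10 and 45 of 328 without. The highest summed hormone level was 10116 TPM with Il21 and 7161 TPM without, and 5954 TPM with Il10 and 10116 TPM without. Acinar genes were found in 5 of 93 and 25 of 327 for Il21, and in 9 of 92 and 21 of 328 for Il10. What part the transcripts of other cell types play was not tested. The number of genes detected was 2121 at the median in T cells with Il21 and 2030 in those without, and 2138.5 in T cells with Il10 and 2023.5 in those without.

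Over all T cells the cytokines lay in opposite directions between the sorts. Il21 was found in 60 of 184 T cells of the HIP sort (32.6%, 25.9–39.9%) and 33 of 236 of the Ins sort (14.0%, 9.82–19.1%), a difference of 18.6 points where 2.15% of genes were higher in HIP by the rule. Il10 was found in 23 of 184 T cells of the HIP sort (12.5%, 8.09–18.2%) and 69 of 236 of the Ins sort (29.2%, 23.5–35.5%), a difference of -16.7 points where 9.05% of genes were lower. For Il21 the share was 31.8% and 33.3% across the HIP blocks, against 8.57%, 22.8% and 10.3% in the Ins blocks. For Il10 it was 13.6% and 11.5% across the HIP blocks, against 34.3%, 32.9% and 21.8% in the Ins blocks. Neither set of blocks overlapped between the sorts, with only 2 HIP and 3 Ins blocks. How many of all genes also have blocks that lie apart was not counted. Since no block holds cells of both sorts, an effect of block and an effect of sort cannot be told apart.

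Both differences were smaller once the proportions of the classes were made equal. With each Ins class weighted to its share of the HIP T cells, Il21 would be found in 28.2% of Ins T cells, a difference of 4.45 points from HIP in place of 18.6, and Il10 in 10.7%, a difference of 1.76 points in place of -16.7. Within the follicular helper class the shares of Il21 differed by -4.45 points (HIP minus Ins), short of the rule, where 4.65% of genes were higher and 8.2% lower. The HIP blocks of that class held Il21 in 16 of 59 and 10 of 52 cells and the Ins blocks in 3 of 16, 10 of 22 and 4 of 23 cells. The Ins block with 10 of 22 cells (block 4) set the sign, since the difference was 5.47 points without it. Leaving out block 5, with 4 of 23 cells, gave -10.8 points.

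Within cluster 2 both cytokines were detected more often in HIP cells, by 13.9 points for Il21 and 14.4 points for Il10, in a comparison where 17.6% of all genes were higher and 12% lower by the same rule. Passing the rule there was common to many genes. The HIP blocks of cluster 2 held Il21 in 11 of 27 and 17 of 34 cells and the Ins blocks in 1 of 8, 5 of 7 and 2 of 10 cells, so the blocks overlap. For Il10 the HIP blocks held it in 12 of 27 and 9 of 34 cells and the Ins blocks in 2 of 8, 2 of 7 and 1 of 10 cells, which also overlap. The difference for Il21 was 29.2 points without block 4 and fell under the 10 points without block 2 (4.73), block 3 (8.74) or block 5 (5.90). That for Il10 was 24.4 points without block 3 and fell under 10 points without block 1 (6.47) or block 5 (7.76).

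In the dividing class the cytokines lay in opposite directions between the sorts, Il21 at 6 of 9 HIP and 5 of 35 Ins cells and Il10 at 0 of 9 HIP and 10 of 35 Ins cells. These were differences of 52.4 points and -28.6 points, where 34% of genes were higher and 18.7% lower by the rule. Foxp3, the defining factor of Tregs, was at 0 of 9 dividing cells of the HIP sort and 27 of 35 of the Ins sort, and its part in these differences was not tested. All 9 HIP dividing cells lie in blocks 1 and 3, with 2 and 7 cells.

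**Figure D3:**
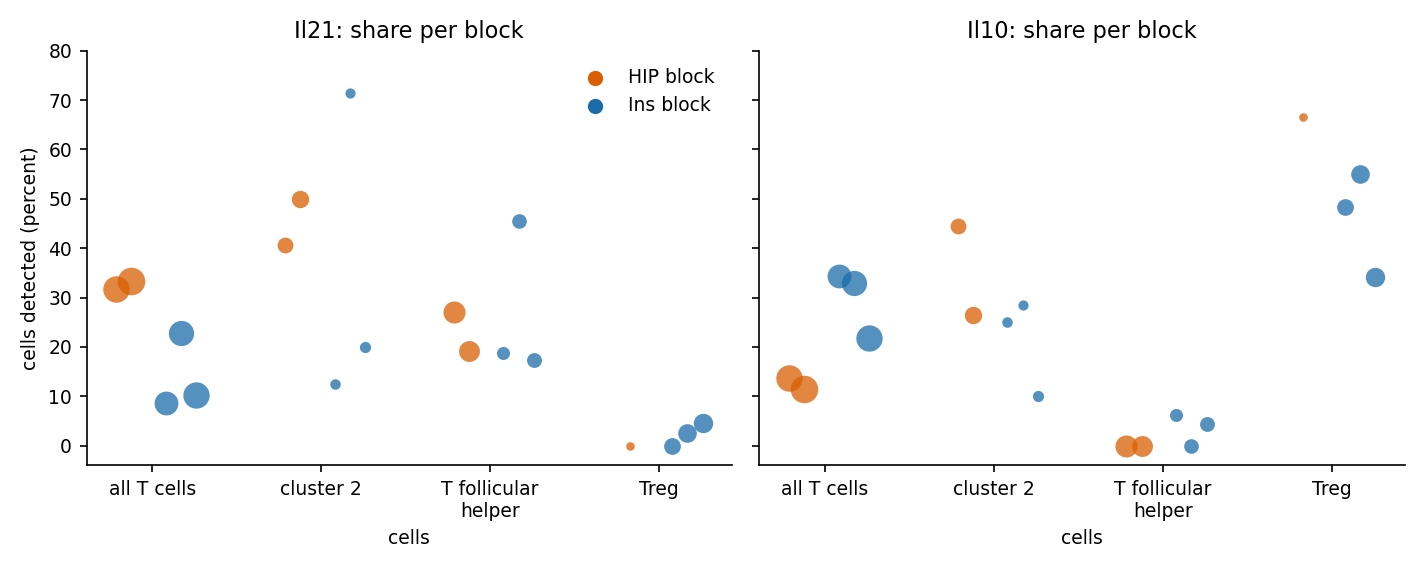
Share of cells with Il21 (left) and Il10 (right) in each block of 96 consecutive cell numbers (percent, vertical axis), for all T cells and by class, HIP blocks in orange and Ins blocks in blue; the area of a point grows with the number of its cells. Over all T cells Il21 stands at 31.8% and 33.3% in the HIP blocks and at most 22.8% in the Ins blocks, while in cluster 2 and the follicular helper class an Ins block lies above both HIP blocks for Il21.

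Cells with and without Foxp3 carried the cytokines in different measure. Il21 was found in 8 of 136 T cells with detected Foxp3 (5.88%, 2.57–11.3%) and 85 of 284 without it (29.9%, 24.7–35.6%). Il10 was found in 55 of 136 with Foxp3 (40.4%, 32.1–49.2%) and 37 of 284 without it (13.0%, 9.34–17.5%). The cells with Foxp3 are almost all of the Ins sort, 133 of 136. Among T cells without Foxp3, Il10 was at 12.7% of HIP (23 of 181) and 13.6% of Ins (14 of 103), a difference of -0.885 points, and Il21 was at 32.6% of HIP (59 of 181) and 25.2% of Ins (26 of 103), a difference of 7.35 points. Inside the Ins Treg class, Il10 was found in 44 of 94 cells with Foxp3 (46.8%, 36.4–57.4%) and 8 of 21 without (38.1%, 18.1–61.6%), with intervals that overlap. A Foxp3 value of 0 can be a transcript that was not captured.

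Both cytokines were found together in 18 of 420 T cells (4.29%, 2.56–6.69%), and 15 of these cells belonged to cluster 2. In cluster 2, both were detected in 12 of 61 HIP cells (19.7%, 10.6–31.8%) and 3 of 25 Ins cells (12.0%, 2.55–31.2%). Outside cluster 2 both were detected in 3 of 334 T cells (0.898%, 0.186–2.60%), namely 2 of 115 Ins Tregs and 1 of 35 Ins dividing cells, against 15 of 86 cells (17.4%, 10.1–27.1%) of cluster 2 in both sorts. Those intervals, pooled over classes and sorts, lie apart. Within Ins, that of cluster 2 overlaps those of Tregs (0.211–6.14%) and dividing cells (0.0723–14.9%) and the limit for follicular helper cells (4.92%). Within HIP, that of cluster 2 lies above the limit for follicular helper cells (2.70%). It does not lie above the limits for the 9 dividing cells (33.3%) and the 3 Tregs (100%). The Ins share of cluster 2 with both was 5.56% without block 4, 20.0% without block 5 and 4.00% at a threshold of 100 TPM. No follicular helper cell held both, among 26 HIP and 17 Ins cells with Il21. In each HIP block, 6 cells of cluster 2 held both, and the Ins blocks held 1, 2 and 0.

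Within cluster 2 the joint count was above what the separate shares give in both sorts, and that difference was not tested. Multiplying the shares gives 9.64 cells in HIP and 1.60 in Ins, against 12 and 3 counted. Class by class outside cluster 2 it gives 1.36 cells in Ins Tregs, against 2 counted, and 1.43 in Ins dividing cells, against 1. In follicular helper cells it gives 0 in HIP and 0.557 in Ins, against 0 counted in each. Pooled over the T cells outside cluster 2, whose classes differ in both shares, it gives 11.3 cells, against 3 counted, and over all T cells 20.4 cells, against 18. The pooled products mix classes rich in 1 cytokine and poor in the other. Il10 was found in 12 of 28 HIP cells with Il21 (42.9%, 24.5–62.8%) and 9 of 33 without it (27.3%, 13.3–45.5%), with overlapping intervals and in a comparison where 15.5% of all genes were higher and 16.3% lower by the rule. In Ins it was found in 3 of 8 cells with Il21 and 2 of 17 without it. Cells with both had 2080.5 genes at the median in HIP, and the other HIP cells of cluster 2 had 2062.

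Where both were present, Il10 was usually the more abundant transcript per length. Il10 stood above Il21 in 16 of 18 cells, 10 of the 12 HIP and 3 of 3 Ins cells of cluster 2. In the 12 HIP cells Il21 ran from 13.1 to 550 TPM (median 174.5) and Il10 from 48.5 to 4161 TPM (median 1228). The cell highest in Il10 held 500 TPM of Il21. In the 3 Ins cells Il21 stood at 5.29, 70.5 and 102 TPM, and Il10 at 438, 1373 and 427 TPM in the same cells. Il10 in HIP cells of cluster 2 without Il21 ran from 1.42 to 3836 TPM with a median of 275 TPM over 9 cells, a range that overlaps that of the cells with both. The median of Il21 was 175 TPM in the 12 HIP cells with Il10 and 183 TPM in the 16 without.

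**Figure D4:**
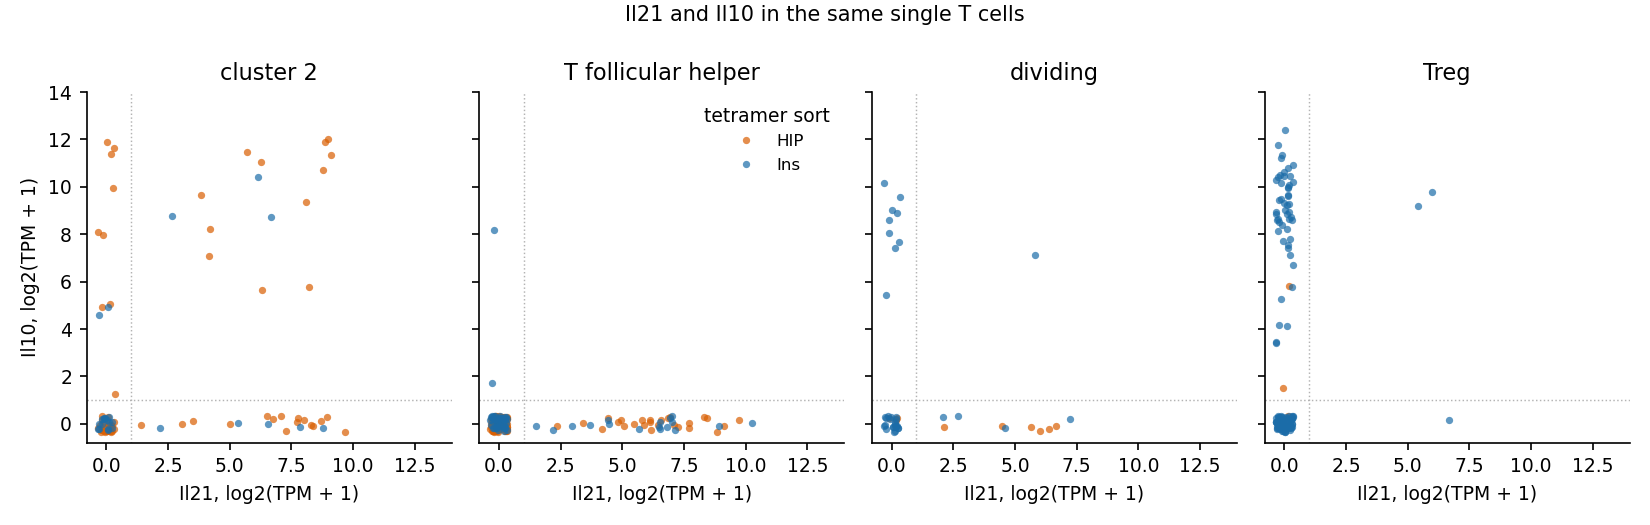
Il21 (horizontal) against Il10 (vertical) in each T cell, both as log2(TPM + 1), in cluster 2, the follicular helper class, dividing cells and Tregs, HIP in orange and Ins in blue. Dotted lines mark the 1 TPM threshold, and cells under it are spread at random around 0 so that they can be seen; 15 of the 18 cells above both lines are in cluster 2 and 0 in the follicular helper class.

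Other cytokines of T cells were set beside the pair in cluster 2, where Il21 or Il10 was found in 37 of 61 HIP cells (60.7%, 47.3–72.9%) and 10 of 25 Ins cells (40.0%, 21.1–61.3%). Ifng, the type 1 effector cytokine, was found in 15 HIP cells of cluster 2, of which 7 also held Il21, 3 held Il10 and 1 held all 3 genes. Of the 2 Ins cells with Ifng, 0 held Il21 or Il10. In HIP cells of cluster 2, Ifng was at 3 of 21 cells with Il10 (14.3%, 3.05–36.3%) and 12 of 40 without (30.0%, 16.6–46.5%), and Tnf, an inflammatory cytokine, at 0 of 21 and 6 of 40. In that comparison 28.3% of genes were lower in the cells with Il10, whose detected genes numbered 1823 at the median against 2138 in the others, and what part this plays was not tested. Of 16 listed cytokines of T cells 9 were measured and 7 passed the detection filter. Of these, 5 were lower in the cells with Il10 and 0 higher. Il4 was found in at most 1 cell of any class and sort, Il15 in 1 cell of cluster 4 and no T cell, and Il2, Il7, Il9, Il17a, Il22 and the other listed members of their families were not analysed here.

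The listed regulators of Il21 and Il10 differed between the classes. Of 9 listed regulators of Il21, 7 passed the detection filter between HIP cluster 2 and HIP follicular helper cells. By the rule 2 of these were higher and 2 lower in cluster 2, against 15.1% of genes higher and 5.42% lower. Maf was at 57.4% of HIP cells of cluster 2 (44.1–70.0%) and 34.2% of HIP follicular helper cells (25.5–43.8%), and Irf4, which acts with Batf at AP-1 composite sites, at 27.9% and 11.7%. Tcf7, which encodes the follicular helper and memory factor TCF-1, was at 6.56% and 80.2%, and Bcl6, the defining factor of follicular helper cells, at 4.92% and 47.7%. Of 9 listed regulators of Il10, 3 were higher and 0 lower in the same comparison, led by Prdm1, the gene of Blimp-1, at 41.0% of HIP cluster 2 and 0.901% of HIP follicular helper cells. In Ins Tregs against Ins follicular helper cells, 8 of the 9 regulators of Il10 passed this detection filter, and 4 were higher and 0 lower. There 13.5% of all genes were higher and 8.63% lower. Prdm1 was at 37.4% and 3.28% and Maf at 59.1% and 32.8%.

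Within the follicular helper class, Maf was detected more often beside Il21 in both sorts. Of 9 listed regulators of Il21, 8 passed the detection filter in each sort. In HIP 3 of them were higher and 0 lower in the cells with Il21, and in Ins 1 was higher and 0 lower. Maf was found in 14 of 26 HIP cells with Il21 (53.8%, 33.4–73.4%) and 24 of 85 without (28.2%, 19.0–39.0%). In Ins it was found in 10 of 17 with Il21 (58.8%, 32.9–81.6%) and 10 of 44 without (22.7%, 11.5–37.8%). The intervals overlapped in each sort, and 33.4% of all genes were higher and 5.27% lower in the HIP cells with Il21, and 24.5% higher and 14.6% lower in the Ins cells with Il21. Those cells also had more genes detected, at medians of 2151.5 with and 1826 without Il21 in HIP and 2132 and 1946 in Ins. In HIP cluster 2 Maf was at 18 of 28 cells with Il21 and 17 of 33 without. Icos, the costimulatory receptor of follicular helper cells, was at 16 of 26 HIP cells with Il21 and 36 of 85 without, and at 12 of 17 and 21 of 44 in Ins.

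Beside Il10, Batf and Il10ra were detected more often in Ins Tregs. Of 9 listed regulators of Il10, 8 passed the detection filter there, and 3 were higher and 0 lower. The 7 listed parts of the interleukin 10 pathway passed it, and 2 were higher and 1 lower. The lower one was Stat3, at 46.2% with Il10 and 57.1% without. Maf was at 34 of 52 Ins Tregs with Il10 (65.4%, 50.9–78.0%) and 34 of 63 without (54.0%, 40.9–66.6%), and at 14 of 21 and 21 of 40 HIP cells of cluster 2. Batf, an AP-1 factor of effector T cells, was at 31 of 52 Ins Tregs with Il10 (59.6%, 45.1–73.0%) and 23 of 63 without (36.5%, 24.7–49.6%). Il10ra, the ligand-binding chain of the interleukin 10 receptor, was at 17 of 52 (32.7%, 20.3–47.1%) and 7 of 63 (11.1%, 4.59–21.6%). These intervals overlap, and 19.3% of genes were higher and 4.24% lower in the Ins Tregs with Il10, whose genes detected were 2138.5 at the median against 1936. Il10ra lay the other way elsewhere, at 23.8% with Il10 and 32.5% without in HIP cluster 2, and at 20% and 36% in Ins dividing cells. In HIP cluster 2, 6 of the 7 parts passed the filter, and 0 were higher and 4 lower beside Il10. There 10.8% of all genes were higher and 28.3% lower. Batf was at 42.9% and 27.5% in HIP cluster 2 and at 70% and 64% in Ins dividing cells.

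The receptors of both cytokines were detected across the T cell classes. Il21r was found in 33 of 61 HIP cells (54.1%, 40.8–66.9%) and 12 of 25 Ins cells of cluster 2 (48.0%, 27.8–68.7%), in 33.3% of HIP and 42.6% of Ins follicular helper cells, and in 72 of 115 Ins Tregs (62.6%, 53.1–71.5%). Dividing cells held it in 4 of 9 HIP and 27 of 35 Ins cells, and in 1 of 21 cells of cluster 4. The shared chain Il2rg was found in 70.3% to 94.3% of cells in groups of more than 3 T cells. Over all T cells, 4 of the 8 listed parts of the interleukin 21 pathway, among them Jak3, Il21r and Il2rg, were lower in HIP than in Ins and 0 higher, where 9.05% of all genes were lower. The median difference of the 8 genes was -9.36 points, and that of all genes tested was -2.51. Within follicular helper cells 2 of the 8 were lower in HIP and 0 higher, where 8.2% of all genes were lower. In cluster 2, 7 passed the detection filter, and 1 was higher and 1 lower, where 17.6% of genes were higher and 12% lower. In dividing cells 1 was higher and 3 were lower, where 34% of genes were higher and 18.7% lower.

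The interleukin 10 receptor was detected less. Il10ra was at 29.5% of HIP (18.5–42.6%) and 8.00% of Ins cells of cluster 2 (0.984–26.0%), at 11.7% of HIP and 16.4% of Ins follicular helper cells, and at 20.9% of Ins Tregs (13.9–29.4%). Il10rb was at 23.0% of HIP and 4.00% of Ins cells of cluster 2, and the kinase Tyk2 at 26.2% of HIP (15.8–39.1%) and 0 of 25 Ins cells. These 3 of the 7 listed parts were higher in HIP by the rule, where 17.6% of all genes were, and none was lower. Over all T cells 6 of the 7 passed, and 0 were called in either direction. Of 9 receptors known to act upstream of the cytokines, 8 passed the filter over all T cells. Of these, 4 were lower in HIP than in Ins (Il27ra, Icos, Il12rb1 and Il6st) and 0 higher. There 9.05% of all genes were lower and 2.15% higher. In cluster 2, 7 passed, and the 4 called ones (Cd28, Tgfbr2, Il6ra and Icos) were higher, where 17.6% of all genes were higher and 12% lower. Il27ra, whose ligand interleukin 27 is known to induce both cytokines in mouse T cells, was at 36.0% of HIP (27.1–45.7%) and 59.0% of Ins follicular helper cells (45.7–71.4%), with intervals that just touch, and at 52.5% of HIP and 52.0% of Ins cells of cluster 2.

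**Figure D5:**
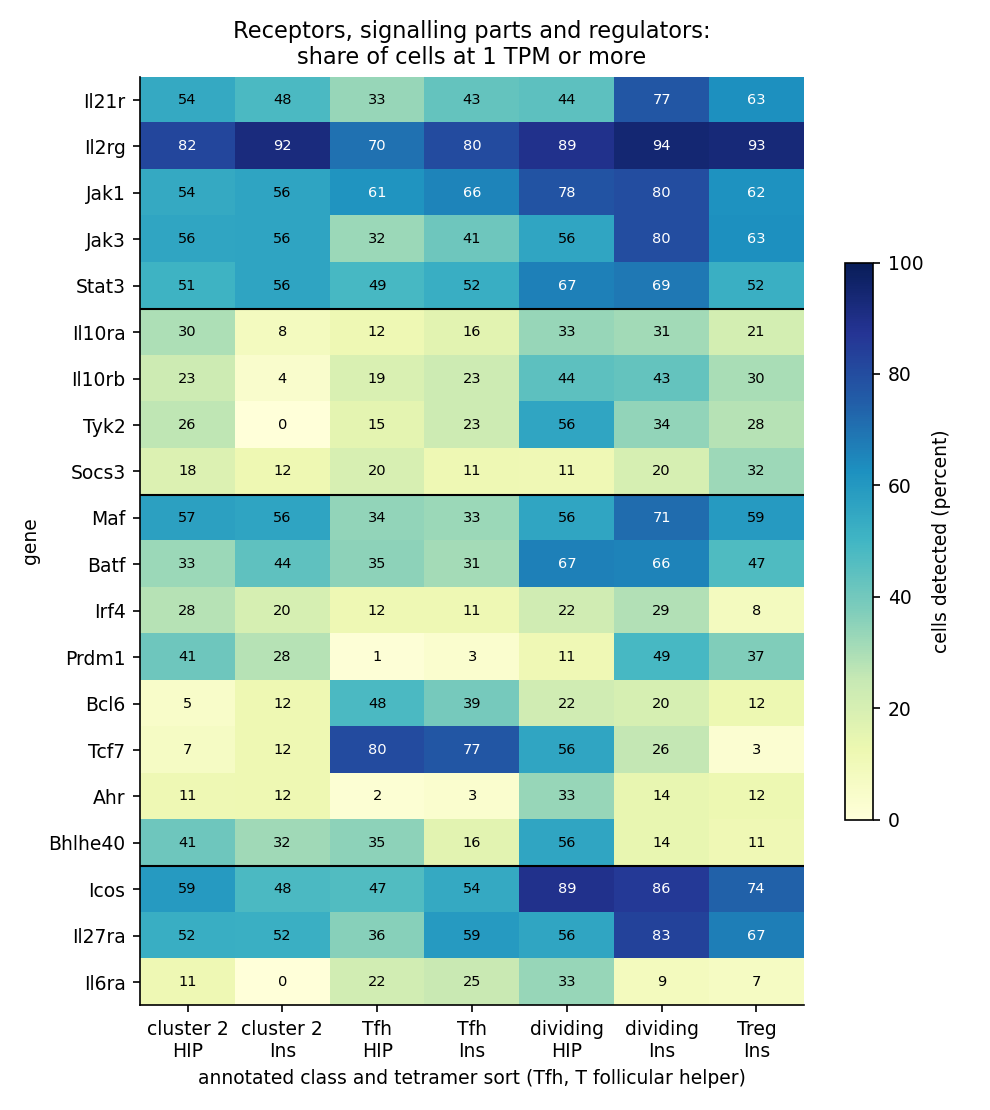
Share of cells at 1 TPM or more (percent, number and colour in each cell) for the interleukin 21 receptor and its signalling parts, the interleukin 10 receptor and its signalling parts, regulators and upstream receptors (4 groups set off by lines), by class and tetramer sort; HIP Tregs (3 cells) are left out. Tcf7 and Bcl6 stand at 6.56% and 4.92% in HIP cluster 2 and at 80.2% and 47.7% in HIP follicular helper cells, while Prdm1 stands at 41.0% in HIP cluster 2 and 0.901% in HIP follicular helper cells.

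Genes that Tr1 cells, a type of regulatory T cell that makes interleukin 10 without Foxp3, are known to carry were also read in the HIP cells of cluster 2 with Il10, none of which held Foxp3. Of 9 listed genes 8 were measured. Lag3, an inhibitory receptor, was at 19 of 21 cells with Il10 and 39 of 40 without, and Ctla4, a checkpoint receptor, at 17 of 21 and 22 of 40. Havcr2, which encodes TIM-3, was at 3 of 21 and 12 of 40 and Pdcd1, which encodes PD-1, at 10 of 21 and 28 of 40. Of the 8, 6 passed the detection filter. By the rule 1 of these was higher in the cells with Il10 and 2 were lower, against 10.8% and 28.3% of all genes.

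The genes whose levels ran most like Il21 over the 420 T cells did so weakly. The highest Pearson correlations of log2(TPM + 1) among 7407 genes detected in at least 5% of T cells were with Tbc1d4 (0.25), Cdkn2b (0.24), Foxj2 (0.23), Gpm6b (0.23) and Fam20a (0.22). Tbc1d4, a regulator of glucose transporter traffic, stood at 49.2% of HIP and 48.0% of Ins cells of cluster 2, 59.5% of HIP and 65.6% of Ins follicular helper cells and 9.57% of Ins Tregs. Cdkn2b, an inhibitor of cell division kinases, stood at 11 of 61 HIP and 5 of 25 Ins cells of cluster 2 and at 3 cells or fewer of any other group. The cells of a sort share their class make-up and blocks, and in sparse values such correlations are descriptions.

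Over all T cells Il10 ran closer to its nearest genes, which were Arl5a (0.46), Itgae (0.40), Tnfrsf1b (0.37), Twsg1 (0.36) and Agpat4 (0.32). With class and sort means subtracted, these correlations were 0.23, 0.21, 0.16, 0.27 and 0.19. Those of the 5 genes named for Il21 then ran from 0.16 to 0.23, so Il10 stood little closer once class and sort were taken out. Arl5a, a small GTPase of the ARF family, was found in 104 of 115 Ins Tregs and in 14 of 111 HIP and 9 of 61 Ins follicular helper cells. Within HIP cluster 2 it was at 19 of 21 cells with Il10 (90.5%, 69.6–98.8%) and 20 of 40 without (50.0%, 33.8–66.2%). Those intervals do not overlap, in a comparison where 10.8% of genes were higher by 10 points, and the gene was picked for its likeness in the same cells. Twsg1, which encodes a binder of bone morphogenetic proteins, was at 40 of 52 Ins Tregs with Il10 (76.9%, 63.2–87.5%) and 19 of 63 without (30.2%, 19.2–43.0%). In that comparison 19.3% of genes were higher by 10 points, and Twsg1 too was picked for its likeness over cells that include these. Itgae, the integrin chain CD103 of tissue-resident T cells, was found in 73.0% of Ins Tregs and 4.92% of HIP cells of cluster 2, and its correlation with Il10 was 0.11 over HIP and 0.43 over Ins T cells. Tnfrsf1b encodes the tumour necrosis factor receptor that Tregs carry, and Agpat4 an acyltransferase of lipid synthesis. Between Il21 and Il10 the correlation was 0.01 over all T cells, 0.22 over HIP and -0.08 over Ins T cells.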

How the data were processed

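Single cells were profiled with full-length SMART-Seq2 and paired-end Illumina reads of 50 and 25 bases, per the labels. Per the submitters' processing notes, TopHat, Bowtie, RSEM 1.2.8 and mm10 were used, with no role stated for any of them, and no filter before deposit was found stated. The authors deposited 1 table of natural log values (13561 genes, 441 cells). Exponentiated and lowered by 1, they summed to 100000 per cell, so they were read as ln(TPM/10 + 1) and turned back into TPM. The authors' deposited annotation gave each cell's class and a number of genes, the same as the non-zero values in 441 of 441 cells; classes matched the labels in 441 of 441. No cells were alike (highest correlation 0.854). The cells were sorted singly and no doublet caller was run.

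A gene was detected at 1 TPM. Shares have 95% intervals by the exact Clopper-Pearson method, and where a limit is printed for a share of 0 it is that of 3 cells in the total; both cover counting error only. A difference of 10 percentage points was called among genes detected in 10% of the cells of either side. Each sort is 1 sample, so no test or p-value was made. Steps were tested on simulated data. Members, gene lists and classes compared were chosen with earlier results of these data known. Named genes were Il21 and Il10, receptors and signalling parts, list members past 10 points (at most 4 per list and direction) and the 5 genes most like each cytokine, leaving out receptor segments, unnamed models, ribosomal protein and mitochondrial genes; further list members were added after their values were seen. Analyses used Python 3.11.15, pandas 2.3.3, numpy 2.4.6, scipy 1.17.1 and matplotlib 3.10.9. Gene positions came from the GENCODE annotation of GRCm38, and the promoter from RefSeq. Values of some listed genes are not reported here. Alternatives covered the threshold, blocks, genes per cell, class mix and Foxp3.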

Additional observations from a re-analysis of the deposited data

Results flagged for a closer look

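In 3 comparisons of the dividing class with another class, the shares of cells with a cytokine lay in opposite directions in the sorts. Il21 was higher in dividing than in follicular helper cells by 43.2 percentage points in HIP and differed by -13.6 points in Ins. Against cluster 2 the dividing cells differed by 20.8 points in HIP and by -17.7 points in Ins for Il21, and by -34.4 points in HIP and 8.57 points in Ins for Il10. The difference between the sorts was not tested. Dividing cells had more genes detected, at a median of 3992 in HIP and of 3753 with and 3581 without Il10 in Ins, against 1823 with and 2138 without Il10 in HIP cluster 2. In Ins, 69.4% of genes were higher and 4.63% lower in dividing cells than in cluster 2 by the 10-point rule, with a median difference of 16.6 points, and 67% were higher and 4.99% lower than in follicular helper cells, with a median of 16.3 points. What part this plays was not tested. The HIP side rests on 9 dividing cells, of which 0 held Foxp3, against 27 of 35 Ins dividing cells.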

How the results depend on the processing

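Of 219 alternative values for 26 results, 17 moved and 2 differences past 10 points reversed. The other 200 stayed in the 95% counting interval of the value reported (shares and differences), within 1.5 times (counts of genes) or on the same side of 0 (log2 levels). In 2 of them a difference under 10 points changed sign, both for Il21 without block 4: 5.47 points in follicular helper cells (HIP minus Ins) and -1.28 points for Ins cluster 2 minus follicular helper cells. At 100 TPM, Il21 differed between the sorts by 10.1 points over all T cells and by -2.86 points in the dividing class (HIP minus Ins, reversed), between Ins Tregs and follicular helper cells by -10.6 points and between Ins cluster 2 and Tregs by 11.1 points. Both cytokines together were then in 8.20% of HIP cluster 2 and in 0% of Ins Tregs and Ins dividing cells, and also in 0% of Ins dividing cells with 1500 to 3000 genes. Without Foxp3-detected cells the HIP minus Ins difference over T cells was 7.35 points for Il21 and -0.885 for Il10, and at the HIP class mix 4.45 points for Il21 and 1.76 for Il10 (reversed), both chosen after seeing the data.

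Leaving out each block in turn gave 16.3 to 23.1 points (Il21) and -21.1 to -14.6 (Il10) over all T cells. HIP minus Ins it gave -10.8 to 5.47 (Il21) and -5.13 to -2.22 (Il10) in follicular helper cells, 4.73 to 29.2 and 6.47 to 24.4 in cluster 2, and 50.7 to 57.1 and -32.0 to -20.0 in dividing cells. It gave 0% to 4.00% of Ins dividing cells with both. Of the 5 genes named as most like Il21, 2 remained among the 5 highest with the phi coefficient and 2 with class and sort means subtracted, and 3 of those like Il10 with means subtracted. Within HIP alone 0 of the 5 for Il21 and 2 of the 5 for Il10 remained, and within Ins alone 0 and 4. Leaving out block 3, or keeping 1500 to 3000 genes, left too few HIP dividing cells for a value. No paired analysis was possible because each sort is 1 sample and cell numbers pair no cells.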
